A study of Mus musculus with 24 samples.

Results

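The experiment compared wild-type NIPBL with an empty vector in cells in which NIPBL was knocked down, across all genes. It comprises the 4 libraries titled for wild-type NIPBL with IPTG and the 4 titled for empty vector with IPTG, 8 of the 24 libraries of the series. All 8 came from 3134 cells, a mouse mammary adenocarcinoma line, transduced with an IPTG-inducible hairpin RNA that targets NIPBL. Either an empty vector (EV) or wild-type NIPBL (WT) was then integrated by piggyBac transposition. Each construct had 2 libraries after ethanol, the vehicle, and 2 after 100 nM dexamethasone, a synthetic ligand of the glucocorticoid receptor, for 2 h. All 8 cultures had been held in charcoal-stripped serum with 1 mM IPTG for 3 days, so both groups carried the induced hairpin. Empty-vector cells without IPTG (4 libraries) and cells with the mutants C1, C2 and C1-C2 (12 libraries) serve below only as reference levels.

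NIPBL, with its partner MAU2, loads the ring-shaped cohesin complex onto chromatin and drives the extrusion of DNA loops. Loops that end at sites of the factor CTCF bring promoters and distant enhancers together, and the clustered protocadherins are the textbook case of genes whose choice of promoter depends on them. Partial loss of NIPBL in people causes Cornelia de Lange syndrome, in which many genes change by small amounts.

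The labels name 1 line per construct. A difference between those lines and an effect of wild-type NIPBL cannot be told apart. The design text calls the replicates biological, and the labels do not say that they were separate cultures. The p-values therefore measure the spread between these libraries.

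The 4 ethanol libraries held 32532858 to 39885540 counts and the 4 dexamethasone libraries 49308873 to 57690039. Of 55341 genes in the table, 16934 passed the filter on low counts and were tested. The first principal component of the 8 libraries (51.3% of the variance) separated the treatments and the second (18.4%) separated the constructs. Replicate 1 of WT in dexamethasone stood apart from its partner, with a chi-square per degree of freedom of 22.9 between them. Of 17 fibroblast and mesenchymal markers 12 reached 1 CPM (a gene's count scaled to a common library total). In the same list 3 markers, Thy1, Dcn and Lum, had no count, and Col3a1 reached at most 0.173 CPM. Epcam, Cldn3, Cldn7, Elf5 and Foxa1 of the 20 luminal markers had no count in any of the 8 libraries. Gata3, Esr1 and Csn3 were the luminal markers at 1 CPM or more. Of the 20 luminal markers 8 had no count and 3 reached 1 CPM, in a line labelled mammary adenocarcinoma. Of 15 leukocyte markers 5 had no count and 3 reached 1 CPM. These were Cd14, Cd68 and Lyz2, at up to 19.04, 11.43 and 3.34 CPM over the 8 libraries. Ptprc, which defines leukocytes, reached at most 0.0248 CPM.

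Nipbl itself overlapped between the groups in ethanol and in dexamethasone. It read 65.1 and 62.6 CPM in the EV libraries and 70.4 and 62.7 in the WT libraries in ethanol. In dexamethasone it read 54.4 and 56.5 CPM with EV and 66.2 and 55.1 with WT. Without IPTG the range was 151 to 186 CPM, above every one of the 8 libraries. The pooled difference did not pass the test (log2 0.095, SE 0.07, adjusted p = 0.448 by the quasi-likelihood test of edgeR). The sources used here do not say whether transcripts of the construct could be counted as Nipbl, so these counts do not check the label WT. Mau2 (log2 0.047, SE 0.041, adjusted p = 0.519) and Nr3c1, the glucocorticoid receptor gene (log2 -0.042, SE 0.034, adjusted p = 0.486), did not pass either.

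WT and EV differed in many genes by small amounts and in a few by large ones. With both treatments pooled and compared within treatment, 1464 of the 16934 genes passed at an adjusted p under 0.05 by edgeR (8.65%). Of these 710 were higher in WT (4.19%) and 754 lower (4.45%). At least 2-fold changes were found for 128 higher and 34 lower genes. Of these 54 of the higher and 33 of the lower were protein-coding, and 42 of the higher were models of the TEC class described below. The median change was 1.31-fold among the genes that rose and 1.15-fold among those that fell. Most calls were of protein-coding genes, 485 higher and 728 lower. In 637 of the 710 higher genes and 714 of the 754 lower genes both WT libraries lay beyond both EV libraries in each treatment, an arrangement that 20.9% of all tested genes showed (9.28% higher and 11.6% lower). Leaving out replicate 1 of WT in dexamethasone reduced the calls to 761, of which 725 were among the 1464. Leaving out other libraries reduced them to as few as 756, without replicate 1 of WT in ethanol, to 803 and 869 without replicates 2 and 1 of EV in ethanol, and to 808 and 967 without replicates 2 and 1 of EV in dexamethasone. A core of 464 genes (205 higher, 259 lower) passed in all 8 such fits, with DESeq2, and with a trend on length and GC content removed, a combination chosen after the results were seen.

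**Figure D1:**
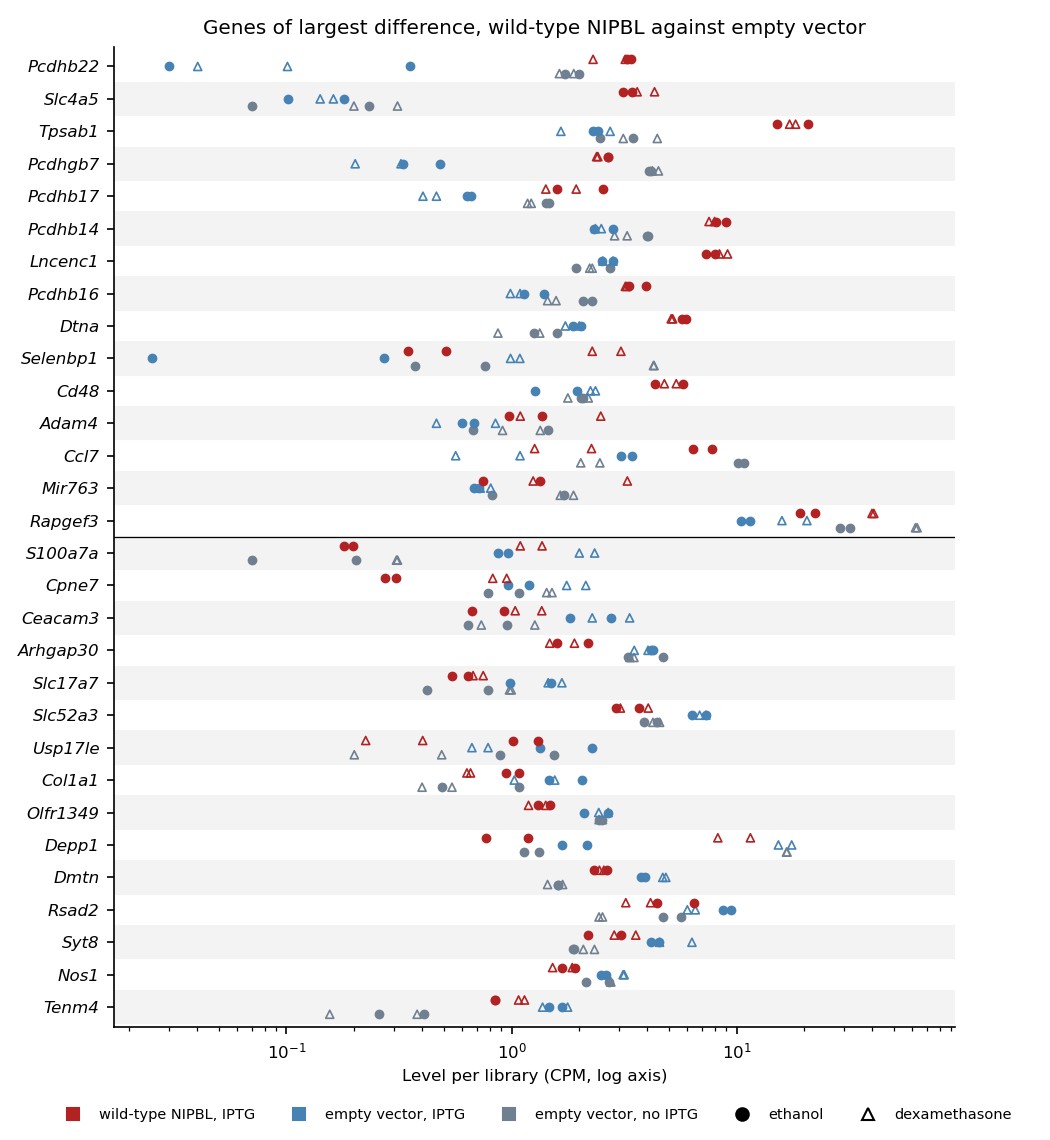
Level of the 15 genes of largest rise (above the line) and the 15 of largest fall in each library, in CPM on a log axis, for wild-type NIPBL with IPTG, empty vector with IPTG and empty vector without IPTG. Circles are ethanol and open triangles dexamethasone libraries, and each point is 1 library. Slc4a5 lies at 3.12 to 4.32 CPM with wild-type NIPBL and at or below 0.311 CPM in both other groups.

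The gene of firmest rise was Slc4a5 (chromosome 6, 83219828 to 83304945, mm10), an electrogenic sodium bicarbonate cotransporter. It read 0.101 and 0.18 CPM with EV and 3.12 and 3.42 CPM with WT in ethanol. In dexamethasone the values were 0.162 and 0.141 CPM with EV and 3.62 and 4.32 with WT. The gene was nearly silent in EV and present in all 4 WT libraries, a 24.5-fold difference (95% interval 16.8 to 35.7; log2 4.61, SE 0.25, adjusted p = 1.63e-11). It was also nearly silent in the other lines, at 0.07 to 0.311 CPM in the cells without IPTG and 0.0158 to 0.294 CPM in the 12 mutant libraries. All 4 WT libraries were thus above the cells whose NIPBL had not been knocked down.

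Tpsab1 (chromosome 17, 25343245 to 25345562), a tryptase best known from mast cells, was 7.81-fold higher (log2 2.96, SE 0.25, adjusted p = 8.18e-06). It read 2.30 and 2.43 CPM with EV and 20.7 and 15.1 with WT in ethanol, and 1.66 and 2.74 against 18.3 and 17.2 CPM in dexamethasone. Ptprc, which mast cells also carry, was close to 0 in all of these libraries. The mutant libraries ranged widely, from 3.70 to 19.5 CPM, and overlapped the WT range, whereas cells without IPTG stayed at 2.47 to 4.44 CPM. Cd48, a surface ligand of the signalling lymphocyte activation molecule family, rose 2.64-fold (log2 1.40, SE 0.13, adjusted p = 1.33e-07). Its 4 WT libraries lay at 4.34 to 5.75 CPM, above the 4 EV libraries at 1.27 to 2.36 CPM and the cells without IPTG at 1.78 to 2.19 CPM.

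Other genes of the largest rise passed in every leave-one-out fit. Dtna, which encodes dystrobrevin alpha of the dystrophin-associated complex, read 1.87 and 2.04 CPM with EV and 5.70 and 5.93 with WT in ethanol, and 2.00 and 1.73 against 5.12 and 5.20 in dexamethasone (2.87-fold, log2 1.52, SE 0.12, adjusted p = 1.44e-08). The mutants held 1.74 to 2.72 CPM and the cells without IPTG 0.87 to 1.59 CPM, so WT alone exceeded 5 CPM. Lncenc1, a long noncoding RNA named for embryonic stem cells, rose 3.06-fold, from 2.52 to 2.82 CPM over the EV libraries to 7.29 to 9.11 CPM over the WT libraries (log2 1.61, SE 0.11, adjusted p = 7.22e-10). The mutants spread over 1.87 to 7.16 CPM and the cells without IPTG held 1.94 to 2.74 CPM.

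Rapgef3, an exchange factor for Rap proteins that cAMP activates (EPAC1), showed a different placing. It read 11.5 and 10.5 CPM with EV and 19.2 and 22.4 with WT in ethanol, and 15.9 and 20.5 against 40.7 and 39.9 in dexamethasone (2.04-fold, log2 1.03, SE 0.088, adjusted p = 3.27e-07). Within each treatment the WT libraries lay between the EV libraries and those without IPTG, which read 28.8 and 31.9 in ethanol and 62.3 and 63.4 in dexamethasone. The genes of largest rise thus fell on both sides of the level without IPTG, some below it (Rapgef3 and Pcdhgb7) and some above it (Slc4a5, Dtna, Lncenc1, Cd48, Tpsab1, Pcdhb14). The comparison with the cells without IPTG shares the EV libraries, so only the levels are given. Of the 15 largest rises, Selenbp1, Adam4 and Mir763 did not pass in all 8 leave-one-out fits (6, 5 and 2 of 8), and Mir763 lies inside Hmga2 on the same strand.

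The genes of largest fall were smaller changes. Arhgap30, a GTPase-activating protein, read 4.18 and 4.26 CPM with EV and 1.59 and 2.18 with WT in ethanol, and 4.04 and 3.51 against 1.90 and 1.48 in dexamethasone (2.23-fold lower, log2 -1.16, SE 0.14, adjusted p = 9.05e-06). The mutants (0.839 to 2.25 CPM) overlapped WT, whereas the cells without IPTG (3.29 to 4.73 CPM) overlapped EV. Slc52a3, a riboflavin transporter, fell 2.03-fold, from 6.33 to 7.30 CPM to 2.93 to 4.05 CPM (log2 -1.02, SE 0.11, adjusted p = 1.01e-06), and stood at 3.88 to 4.55 CPM without IPTG. Cpne7, a calcium-dependent phospholipid-binding copine, fell 2.84-fold (log2 -1.51, SE 0.19, adjusted p = 8.08e-06), with 1.19 and 0.96 against 0.273 and 0.308 CPM in ethanol and 1.76 and 2.14 against 0.951 and 0.825 in dexamethasone. The naming rule admitted only genes whose groups did not overlap within either treatment, so their separation is not a further result.

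S100a7a, a psoriasin-like calcium-binding protein, read 0.962 and 0.87 CPM with EV and 0.198 and 0.18 with WT in ethanol, and 2.00 and 2.34 against 1.37 and 1.09 CPM in dexamethasone (log2 -1.54, SE 0.34, adjusted p = 0.00708). The cells without IPTG, at 0.07 to 0.311 CPM, overlapped WT in ethanol and lay below it in dexamethasone. Dmtn, the actin-bundling protein dematin, stepped down in order, with 3.77 to 4.85 CPM in EV, 2.33 to 2.64 CPM in WT and 1.45 to 1.69 CPM without IPTG (1.71-fold lower, log2 -0.77, SE 0.10, adjusted p = 1.76e-05). Nos1, the neuronal nitric oxide synthase, fell 1.63-fold to 1.52 to 1.91 CPM, below both EV (2.49 to 3.17 CPM) and the cells without IPTG (2.15 to 2.76 CPM). Of the 15 largest falls, Usp17le, Col1a1, Syt8 and Tenm4 lost their call in 1 or more of the 8 leave-one-out fits (passing in 4, 6, 5 and 5 of 8).

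Genes passed in each treatment on its own, with more calls in dexamethasone. In ethanol 196 genes passed (1.16%), 107 higher (0.632%) and 89 lower (0.526%), and in dexamethasone 712 passed (4.2%), 400 higher (2.36%) and 312 lower (1.84%). These contrasts share no library. Of the 107 genes higher in ethanol, 106 had the same sign in dexamethasone and 88 were called there, and none was called in the opposite direction. Of the 89 lower in ethanol, all 89 had the same sign and 68 were called. In the reverse direction fewer calls were shared. Of the 400 genes higher in dexamethasone, 382 had the same sign in ethanol and 88 were called there. Of the 312 lower in dexamethasone, 302 had the same sign and 68 were called. Over all tested genes the sign was shared by 69.2%. Without replicate 1 of WT in dexamethasone the dexamethasone calls fell to 195. They were 242 and 164 without replicates 1 and 2 of EV and 1446 without replicate 2 of WT. Leaving out 1 library of the ethanol groups left 64 to 90 calls in ethanol.

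**Figure D2:**
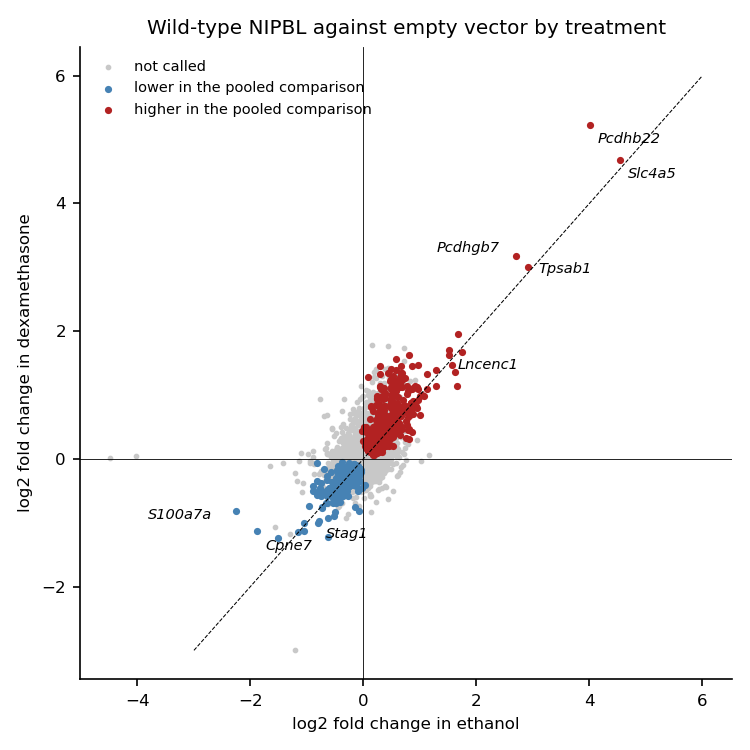
log2 fold change of wild-type NIPBL against empty vector in ethanol (horizontal) and in dexamethasone (vertical) for the 12436 tested genes with a mean of at least 1 CPM, with genes of the pooled call in colour and the dashed line marking equal changes. Across genes, which are not independent replicates, Pearson's r was 0.646, and Pcdhb22, Slc4a5, Pcdhgb7 and Tpsab1 lie far out near the line.

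The difference between the treatments was tested directly for every gene, and 2 of 16934 passed (0.0118%; edgeR, with 521 at an unadjusted p under 0.05 and 4 calls with DESeq2). Nrip1, a corepressor of nuclear receptors, read 45.9 and 48.3 CPM with EV and 46.7 and 45.4 with WT in ethanol. In dexamethasone it read 52.7 and 52.5 with EV and 70.9 and 71.6 with WT. The WT libraries were higher in dexamethasone and overlapped EV in ethanol (difference of log2 changes 0.47, adjusted p = 0.0159). Adamts1, a secreted metalloprotease that cleaves proteoglycans, went opposite ways. It read 80.1 and 83.0 CPM with EV and 62.1 and 70.1 with WT in ethanol, but 54.3 and 49.0 against 68.9 and 75.0 in dexamethasone (difference 0.78, adjusted p = 0.0159). The number of such genes ranged from 0 to 3 when 1 library was left out, and was 0 without either EV library in ethanol, replicate 1 of WT in ethanol, replicate 2 of EV in dexamethasone or replicate 2 of WT in dexamethasone.

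Of the 34 gene lists the clustered protocadherins had the largest median difference. These cell-surface cadherins are encoded in 3 neighbouring clusters on mouse chromosome 18 (alpha, beta and gamma). The count data hold 57 members, of which 34 were tested, and 22 were higher in WT (64.7%, against 4.19% of all genes) and 0 lower. The median log2 difference was 1.97, against -0.0013 over all tested genes. Many members passed the filter on low counts only because some group expressed them, so these numbers describe the measured members. Of the members that rose, 10 passed in the core described above, DESeq2 called 10, and 5 passed a strict filter on counts in every library. By cluster, 0 of 6 alpha members, 11 of 11 beta members and 11 of 17 gamma members rose, with medians of 0.32, 2.54 and 2.93.

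Pcdhb22 read 0.354 and 0.03 CPM with EV and 3.25 and 3.39 with WT in ethanol, and 0.101 and 0.0403 against 3.20 and 2.30 in dexamethasone. Groups separate in each treatment were a condition of naming it among the largest rises (log2 4.62, SE 0.36, adjusted p = 2.09e-08). The log2 difference was 5.95 without replicate 1 of EV in ethanol and 4.22 without its partner, and the cells without IPTG held 1.63 to 1.98 CPM, below WT. Pcdhgb7 rose 7.67-fold (log2 2.94, SE 0.21, adjusted p = 2.02e-09), with 0.202 to 0.481 CPM over EV and 2.39 to 2.68 CPM over WT, and stayed below its level without IPTG (4.09 to 4.49 CPM). Pcdhb14, the most abundant beta member that rose, read 2.33 and 2.82 CPM with EV and 8.97 and 8.11 with WT in ethanol, and 2.50 and 2.36 against 7.54 and 7.98 in dexamethasone (3.26-fold, log2 1.70, SE 0.10, adjusted p = 6.23e-11). Its WT libraries were above both EV and the cells without IPTG (2.87 to 4.04 CPM). Pcdhb16 (2.98-fold) and Pcdhb17 (3.52-fold) rose as well.

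Not every protocadherin passed. Pcdhgc3, the one member at a high level, read 162 and 162 CPM with EV and 189 and 171 with WT in ethanol and did not pass (log2 0.079, SE 0.044, adjusted p = 0.286). Pcdhgc4 (0.54, adjusted p = 0.077) and Pcdhgc5 (0.42, adjusted p = 0.148) did not pass either. Gamma genes share their last exons, and in the annotation Pcdhgb7 overlaps many other gamma genes, Pcdhgc3 among them, on 1 strand. Pcdhb21 and Pcdhb22 overlap likewise. How the authors assigned reads in shared exons is not given in the sources used here, so the split of counts between such genes is uncertain. Outside the clusters, 0 of 19 other tested cadherins rose and 4 fell (21.1%, against 4.45% of all genes), although leave-one-out fits left 1 or 2 calls whichever library was left out. Of the 4 only 1 belonged to the core, Cdh13 (T-cadherin, 16.0 to 18.9 CPM in EV against 12.6 to 14.1 in WT, log2 -0.36, SE 0.056, adjusted p = 1.56e-04).

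Genes of the interferon response leaned the other way. Of 28 tested members of the interferon list, 4 fell (14.3%, against 4.45% of all genes), 0 rose, and all 28 log2 differences were negative, with a median of -0.21. With a replicate block 7 passed and with no filter on low counts 8. Leave-one-out fits gave 3 to 9 calls, with 3 without replicate 1 of WT in dexamethasone and 9 without its partner. Rsad2 (viperin, an antiviral radical-SAM enzyme) read 8.71 and 9.48 CPM with EV and 4.44 and 6.45 with WT in ethanol, and 6.04 and 6.55 against 3.22 and 4.14 in dexamethasone (1.69-fold lower, log2 -0.76, SE 0.12, adjusted p = 3.52e-04). Oas1a, an oligoadenylate synthetase that senses double-stranded RNA, fell 1.49-fold from 2.71 to 3.04 to 1.80 to 2.04 CPM (log2 -0.58, SE 0.12, adjusted p = 0.00411), and has close paralogs. Ifit2, which binds RNA, fell 1.22-fold (log2 -0.29, SE 0.065, adjusted p = 0.00601), with 24.9 and 25.8 against 18.5 and 20.3 CPM in ethanol. Ifit3 fell 1.53-fold (log2 -0.61, SE 0.18, adjusted p = 0.037), passed in only 3 of 8 leave-one-out fits and has the near copy Ifit3b. The cells without IPTG held 2.45 to 5.67 CPM of Rsad2 and 1.70 to 2.14 CPM of Oas1a. Isg15 (-0.057, adjusted p = 0.759) did not pass.

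The promoters of 3 of these genes are shown because they hold a sequence feature found in 11 of the 20 interferon-list genes with a promoter. The feature is named for the response that defines the list, so its share describes the list and not the effect of WT. Ifit2, which also fell, had no match in its window and is not printed. The other holders of the feature, Bst2, Ddx58, Ifit1, Ifit3b, Isg15, Oas1g, Oas3 and Stat2, did not pass and are not printed either. The sequences are the 250 bases before the annotated start (RefSeq, GRCm38.p6, written 5′ to 3′ on the gene's strand). Capitals mark GAAA, any 2 bases and GAAA, the core of the interferon-stimulated response element, on either strand, with overlapping matches run together. The last sequence, of the cystine transporter gene Slc7a11, marks TGATG, any base and AA, the core of the site bound by ATF4 with a C/EBP partner. It belongs to the list of ATF4 and unfolded protein response genes. Trib3 of that list also fell, but its match lies 14 bases after the start, outside the printed stretch. Aars, Asns, Chac1 and Herpud1 hold a match too, did not pass and are not printed. Slc3a2, which fell, was not among the holders.
Rsad2, chr12:26456453-26456702, minus strand: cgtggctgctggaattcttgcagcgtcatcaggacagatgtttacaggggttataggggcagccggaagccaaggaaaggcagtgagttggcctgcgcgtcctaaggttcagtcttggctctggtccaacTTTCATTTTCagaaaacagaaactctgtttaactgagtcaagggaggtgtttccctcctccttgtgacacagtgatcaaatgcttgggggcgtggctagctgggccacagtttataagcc
Oas1a, chr5:120907526-120907775, minus strand: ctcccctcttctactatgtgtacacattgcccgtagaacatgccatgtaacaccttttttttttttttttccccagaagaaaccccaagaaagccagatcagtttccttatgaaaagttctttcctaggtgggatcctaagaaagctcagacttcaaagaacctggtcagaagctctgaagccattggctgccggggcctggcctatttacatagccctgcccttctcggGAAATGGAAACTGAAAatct
Ifit3, chr19:34583279-34583528, plus strand: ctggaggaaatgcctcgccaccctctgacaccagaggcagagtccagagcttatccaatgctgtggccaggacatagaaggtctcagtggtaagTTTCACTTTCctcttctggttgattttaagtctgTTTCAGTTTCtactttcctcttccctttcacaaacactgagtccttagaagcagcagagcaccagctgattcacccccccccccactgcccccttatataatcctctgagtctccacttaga
Slc7a11, chr3:50443614-50443863, minus strand: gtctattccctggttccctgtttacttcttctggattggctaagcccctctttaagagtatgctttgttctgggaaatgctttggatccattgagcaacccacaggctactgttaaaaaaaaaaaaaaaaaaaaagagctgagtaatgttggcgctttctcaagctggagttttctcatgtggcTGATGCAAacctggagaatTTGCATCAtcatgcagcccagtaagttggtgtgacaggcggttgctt

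In a window of 250 bases before to 50 after the start, the GAAA pair was found on either strand in 11 of the 20 interferon-list genes with a promoter in the table (55%). It was found in 3.55% of the 10231 tested genes with a promoter and in 3.44% of all 32851 promoters. The TGATG motif was found in 6 of 23 genes of the list of ATF4 targets and the unfolded protein response (26.1%), against 2.76% of the tested genes. The motifs were chosen after the results were seen, and a match describes letters only. Each list was drawn from the pathway that its motif belongs to, so neither share bears on WT against EV. The core of the CTCF motif (CCA, any 2 bases, AG, any 2 bases and GGC) was in 3.48% of tested promoters, 2.6% of those of the genes higher in WT and 3.85% of those of the genes lower in WT.

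Of 27 tested ATF4 and unfolded protein response genes, 3 fell (11.1%, against 4.45% of all genes) and 0 rose. Of the 27 differences 23 were negative, as were 8530 of the 16934 over all tested genes, and the median was -0.054. Trib3, a pseudokinase that ATF4 induces and that restrains it, read 50.5 and 51.2 CPM with EV and 34.9 and 35.5 with WT in ethanol, and 45.1 and 44.4 against 30.2 and 28.3 in dexamethasone (1.49-fold lower, log2 -0.57, SE 0.11, adjusted p = 0.00412). Slc7a11 read 36.3 and 31.3 CPM with EV and 23.3 and 17.8 with WT in ethanol, and 26.6 and 24.2 against 19.2 and 15.9 in dexamethasone (1.54-fold lower, log2 -0.62, SE 0.13, adjusted p = 0.0115). The groups did not overlap for either gene, and the levels without IPTG were 25.1 to 32.1 and 8.03 to 14.9 CPM, below WT within each treatment for both. Slc3a2, the heavy chain that pairs with Slc7a11 at the membrane, fell 1.17-fold (log2 -0.23, SE 0.039, adjusted p = 4.61e-04). Of 17 tested amino acid carriers 5 fell (29.4%) and 1 rose (5.88%), against 4.45% and 4.19% of all genes. Slc7a11 and Slc3a2 are counted here again, the others being Slc36a1, Slc36a4 and Slc1a4 (lower) and the glycine transporter Slc6a9 (1.20-fold higher).

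**Figure D3:**
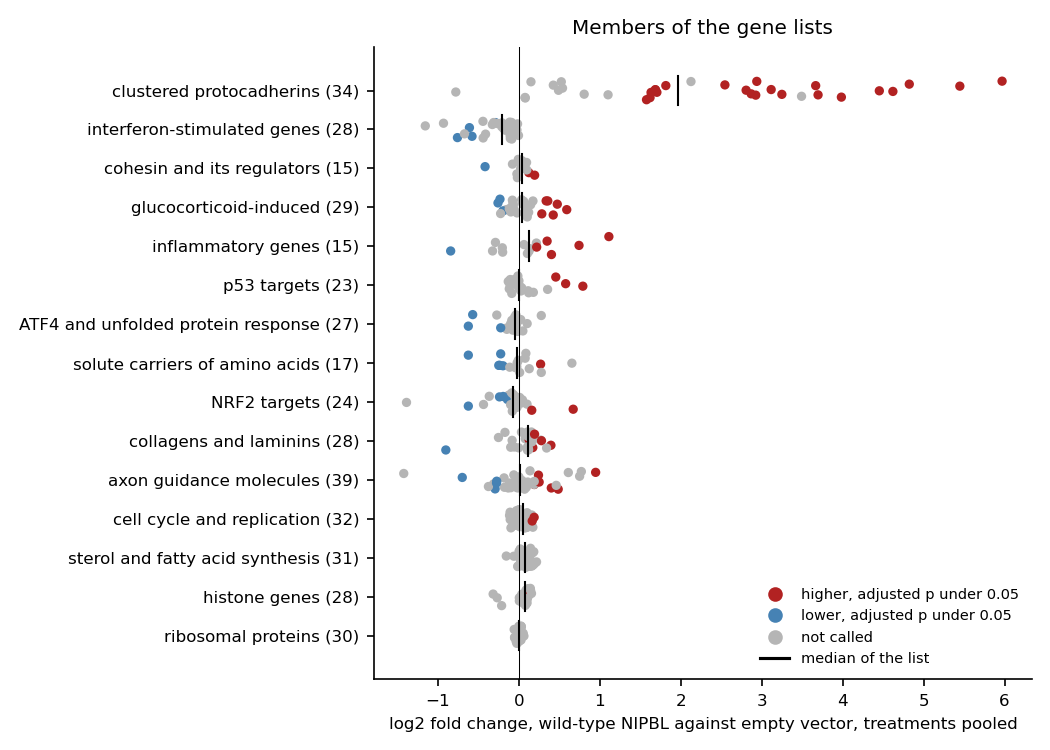
log2 fold change of wild-type NIPBL against empty vector, treatments pooled, for each tested member of 15 of the 34 gene lists (number tested in brackets), coloured by the call at an adjusted p under 0.05, with the median of each list as a black bar. The clustered protocadherins extend to the right with a median of 1.97, all 28 interferon-stimulated genes lie at or left of 0, and ribosomal protein genes stay within -0.059 to 0.062.

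Several chemokine genes rose. Ccl2, which attracts monocytes, read 9.47 and 9.30 CPM with EV and 16.9 and 14.5 with WT in ethanol, and 1.70 and 1.57 against 3.18 and 2.26 in dexamethasone (1.67-fold, log2 0.74, SE 0.11, adjusted p = 1.13e-04). Its neighbour Ccl7 read 3.44 and 3.06 against 7.78 and 6.39 CPM in ethanol and 1.09 and 0.565 against 2.27 and 1.27 in dexamethasone (2.16-fold, log2 1.11, SE 0.18, adjusted p = 2.67e-04). Both genes were several-fold lower in dexamethasone than in ethanol with either construct, and WT exceeded EV in each treatment. Without IPTG Ccl2 read 22.9 and 19.1 CPM in ethanol, above WT, and 3.27 and 2.94 CPM in dexamethasone, where it overlapped WT. Cxcl1, a neutrophil attractant, rose 1.32-fold (log2 0.40, SE 0.082, adjusted p = 0.00253). Of 15 tested inflammatory genes 5 rose (33.3%) and 1 fell (6.67%), against 4.19% and 4.45% of all genes, and of these Ccl2, Ccl7 and Cxcl1 belonged to the core of 464 genes. Cxcl12 and Ptgs2 rose and Csf3 fell with less support, passing in 0, 4 and 4 of 8 leave-one-out fits. Cxcl10 (-0.33, adjusted p = 0.0807) and Cxcl5 (-0.29, adjusted p = 0.249) did not pass.

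Glucocorticoid-induced genes moved in both directions, with 6 of 29 higher (20.7%) and 3 lower (10.3%), against 4.19% and 4.45% of all genes, and a median of 0.043. Bcl6, a transcriptional repressor, read 23.1 and 20.9 CPM with EV and 30.05 and 29.99 with WT in ethanol, and 24.4 and 23.9 against 34.0 and 34.3 in dexamethasone (1.39-fold, log2 0.47, SE 0.081, adjusted p = 0.00107). Pdk4, which inhibits the pyruvate dehydrogenase complex, rose 1.34-fold (log2 0.42, SE 0.084, adjusted p = 0.00196). Sgk1, the serum- and glucocorticoid-regulated kinase, fell, with 48.6 and 47.1 CPM in EV and 37.9 and 41.1 in WT in ethanol and 375 and 376 against 302 and 334 in dexamethasone (1.20-fold lower, log2 -0.26, SE 0.039, adjusted p = 1.23e-04). Ampd3, an AMP deaminase, fell (log2 -0.23, SE 0.037, adjusted p = 1.86e-04). Fkbp5, a co-chaperone that restrains the receptor, rose (log2 0.28, SE 0.055, adjusted p = 0.0023), and Klf6 fell. Rgs2, Angptl4 and Ddit4 rose but passed in only 5, 2 and 1 of 8 leave-one-out fits. The groups were separate within each treatment for Bcl6, Pdk4, Sgk1 and Ampd3.

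Of the 15 cohesin genes and regulators, 2 rose (13.3%) and 1 fell (6.67%), against 4.19% and 4.45% of all genes, and 12 did not pass. Stag1, one of the alternative STAG subunits of the cohesin ring, showed the firmest change. It read 221 and 222 CPM with EV and 162 and 162 with WT in ethanol, and 187 and 179 against 140.0 and 140.2 in dexamethasone. The WT libraries were lower in each treatment with little spread (1.34-fold, log2 -0.42, SE 0.035, adjusted p = 2.09e-08), and the cells without IPTG were lower again, at 153 and 144 in ethanol and 128 and 117 in dexamethasone. Pds5b, which binds cohesin and regulates its release, moved the other way, with 158 and 160.2 CPM in EV and 179 and 176 in WT in ethanol and 136 and 131 against 159 and 154 in dexamethasone (1.14-fold higher, log2 0.19, SE 0.031, adjusted p = 1.79e-04). Without IPTG it read 199 and 198 in ethanol, above WT, and 158 and 161 in dexamethasone, where it overlapped WT. Esco2, an acetyltransferase of cohesin, just passed (log2 0.12, SE 0.039, adjusted p = 0.0484), passed in 1 of 8 leave-one-out fits and had a log2 difference of -0.028 with the trend on length and GC content removed. The ring subunits Smc1a (log2 0.038, SE 0.039, adjusted p = 0.598) and Rad21 (log2 0.021, SE 0.037, adjusted p = 0.78) and the other STAG subunit, Stag2 (log2 -0.019, SE 0.045, adjusted p = 0.844), did not pass.

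Among 39 axon guidance molecules 6 rose (15.4%) and 4 fell (10.3%), against 4.19% and 4.45% of all genes. Sema3a, a secreted repellent, read 7.06 and 7.50 CPM with EV and 15.1 and 13.4 with WT in ethanol, and 5.88 and 5.34 against 10.8 and 10.5 in dexamethasone (1.93-fold, log2 0.95, SE 0.077, adjusted p = 1.44e-08). Its WT libraries also exceeded those without IPTG, which read 9.62 and 10.7 in ethanol and 7.07 and 7.16 in dexamethasone. Genes of plexins and neuropilins, the receptor families of such semaphorins, moved in both directions. The plexins Plxna2 (124 to 143 CPM in EV, 167 to 206 in WT, log2 0.49, SE 0.046, adjusted p = 1.28e-07), Plxna3 and Plxna1 rose. The co-receptors Nrp1 (50.5 to 62.1 CPM in EV, 42.0 to 50.9 in WT, log2 -0.29, SE 0.043, adjusted p = 7.27e-05) and Nrp2 fell. All 6 of these genes passed in every leave-one-out fit, with DESeq2 and with the trend removed.

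Of 28 tested collagens and laminins 5 rose and 1 fell, or 17.9% and 3.57% against 4.19% and 4.45% of all genes, with a median of 0.12. The count was 10 with the trend on length and GC content removed. It was 2 without replicate 1 of EV or of WT in ethanol and 3 without replicate 2 of EV in ethanol, either EV library in dexamethasone or replicate 1 of WT in dexamethasone, where the median was 0.061. The core held 1 member. Col5a1 (log2 0.28, SE 0.048, adjusted p = 4.58e-04) rose from 93.7 to 122 CPM to 127 to 146 CPM, and the basement membrane genes Col4a1 and Col4a2, which lie head to head, rose 1.09-fold and 1.13-fold. Col1a1, a chain of type I collagen, was at a low level and fell from 1.03 to 2.05 to 0.633 to 1.08 CPM (log2 -0.90, SE 0.22, adjusted p = 0.0104). Among 18 other matrix proteins Thbs2, an anti-angiogenic matricellular protein, rose 2.00-fold, with 0.684 and 0.81 CPM in EV and 1.56 and 1.46 in WT in ethanol (log2 1.00, SE 0.17, adjusted p = 4.65e-04). The proteoglycan Vcan fell 1.29-fold (log2 -0.37, SE 0.066, adjusted p = 0.0015). Of the 12 tested mesenchymal markers 1 rose (8.33%) and 3 fell (25%), against 4.19% and 4.45% of all genes. Vim, the intermediate filament of mesenchymal cells, fell 1.14-fold (log2 -0.19, SE 0.04, adjusted p = 0.00291), and Twist2 rose (0.19, adjusted p = 0.0068). The median of the list was -0.047, and 0.0081 without replicate 1 of WT in dexamethasone. The summed level of the 17 mesenchymal markers was 5992 to 6257 CPM in EV and 5406 to 5889 CPM in WT, of which Vim alone made up 3795 to 4126 and 3328 to 3608 CPM. Fewer cells of a type and less RNA per cell cannot be told apart in such bulk libraries.

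Btg2, an antiproliferative gene, and Plk2, a kinase, are p53 targets that rose. Btg2 read 3.44 and 3.78 CPM with EV and 5.93 and 7.32 with WT in ethanol, and 3.92 and 3.35 against 5.34 and 6.50 in dexamethasone (1.73-fold, log2 0.79, SE 0.10, adjusted p = 1.49e-05). Plk2 read 45.5 and 40.9 against 55.2 and 60.1 CPM in ethanol and 13.0 and 13.5 against 17.8 and 19.7 in dexamethasone (1.37-fold, log2 0.46, SE 0.051, adjusted p = 1.92e-06). Of 23 p53 targets 3 rose (13%, against 4.19% of all genes), or 5 with a replicate block, and 0 fell, and the median of the list was 0.00013, against -0.0013 over all tested genes. Gsta4, a glutathione transferase for lipid peroxidation products, was among the most precise changes (1.59-fold, log2 0.67, SE 0.047, adjusted p = 1.47e-09), with 213 and 198 CPM in EV and 337 and 316 in WT in ethanol and 216 and 200.4 against 315 and 349 in dexamethasone. Of 24 NRF2 targets 4 fell (Slc7a11, Gclm, Srxn1 and G6pdx, 16.7%), and Gsta4 and Tkt rose (8.33%), against 4.45% and 4.19% of all genes. The AP-1 gene Fosl2 (1.32-fold, log2 0.40, SE 0.043, adjusted p = 8.51e-07) and the Notch effector gene Rbpj (1.28-fold, log2 0.36, SE 0.051, adjusted p = 7.19e-05) rose. Krt14, a basal keratin, rose from 14.1 to 15.6 to 19.6 to 21.8 CPM (log2 0.51, SE 0.066, adjusted p = 1.63e-05).

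Several lists had few or no calls. None of 30 ribosomal protein genes, 31 sterol and fatty acid synthesis genes, 15 mitochondrially encoded genes or 6 imprinted genes passed. Of the sterol and fatty acid genes 27 had a positive difference, with a median of 0.077. Of 28 histone genes 1 rose (3.57%, against 4.19% of all genes), 25 were positive and the median was 0.078. Of 32 cell cycle genes 2 rose (6.25%, against 4.19% of all genes), Mki67 (1.14-fold, log2 0.19, SE 0.046, adjusted p = 0.0117) and Tyms. Neither belonged to the core, and 1 member of the list rose with the trend on length and GC content removed. Other signalling lists held calls in both directions. In the Wnt list 2 of 21 rose (9.52%) and 3 fell (14.3%), and in the TGF-beta and BMP list 3 of 29 rose (10.3%) and 6 fell (20.7%), against 4.19% and 4.45% of all genes. In leave-one-out fits the Wnt list had 3 to 5 calls and the TGF-beta and BMP list 5 to 9, with 5 without replicate 2 of EV in ethanol and 5 without replicate 1 of WT in dexamethasone.

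A library property differed between the WT and EV libraries, and it also varied between replicates of other groups. A class of GENCODE gene models called TEC, stretches with transcript evidence that await experimental proof, accounted for 139 of the 710 higher genes and 0 of the 754 lower ones. Of 1123 tested TEC models 820 lie within or across a protein-coding gene on the same strand, where they had a median log2 difference of 0.51, and 199 lie outside such genes, with a median of 0.21. The TEC share of the counts was 0.211% and 0.184% with WT in ethanol against 0.177% and 0.161% with EV, and 0.253% and 0.163% against 0.143% and 0.144% in dexamethasone. Without IPTG it was 0.218% and 0.174% in ethanol and 0.143% and 0.185% in dexamethasone. With C1 in ethanol it was 0.212% and 0.158%. Without replicate 1 of WT in dexamethasone, the library of highest share, 18 of the 139 TEC calls were kept and the median over all TEC models was 0.23 instead of 0.42. The sense-intronic class moved likewise, with 24 of 186 higher (12.9%), against 12.4% of the TEC models and 4.19% of all genes. The part of intronic or unspliced RNA in these differences was not tested.

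**Figure D4:**
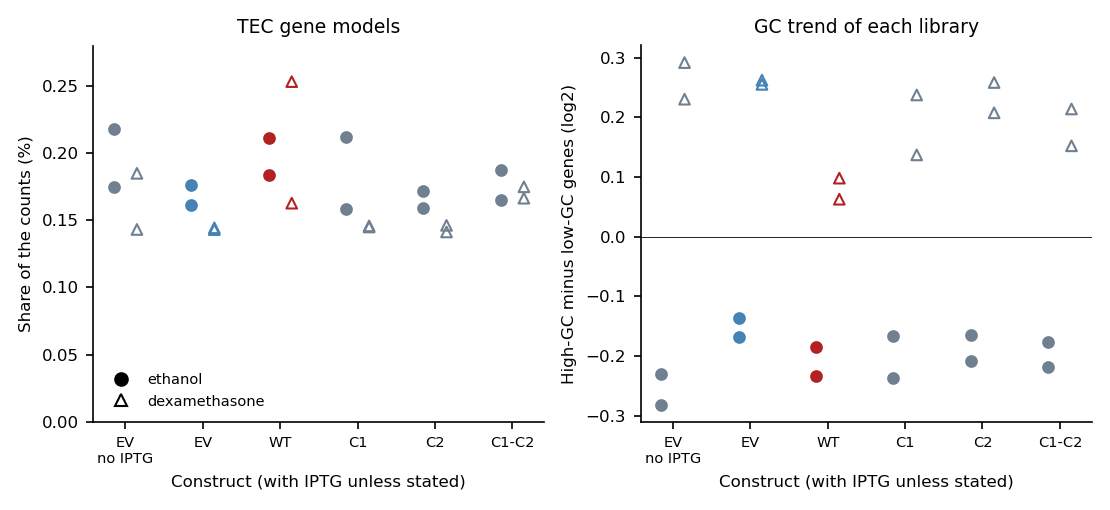
Share of the counts in TEC gene models (left, percent) and level of the genes of highest against those of lowest GC content (right, log2 units) in each of the 24 libraries by construct, with ethanol as circles and dexamethasone as open triangles. In each treatment both wild-type libraries lie above both empty-vector libraries on the left, up to 0.253% in dexamethasone, and below them on the right.

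The share of calls differed with gene length and GC content. Protein-coding genes of at least 1 CPM were split into 4 equal groups, and 8.02% of the group of longest span (54.9 kb and more) were called higher, against 2.23% of the shortest. Of the group of highest GC content in the exons 10.6% were called lower, against 2.53% of the lowest. The libraries themselves differed in the same direction. The level of GC-rich minus GC-poor genes was -0.234 and -0.185 log2 units with WT and -0.168 and -0.137 with EV in ethanol. In dexamethasone it was 0.0627 and 0.098 with WT and 0.262 and 0.255 with EV. With a smooth trend on length and GC content removed from every library, 1435 genes passed (613 higher, 822 lower) and 1080 of the 1464 calls were kept.

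**Figure D5:**
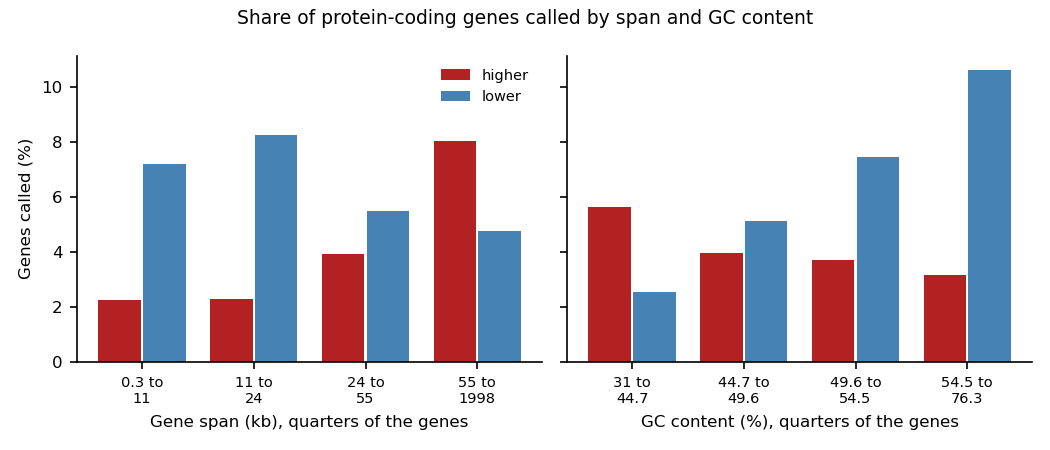
Share of protein-coding genes with a mean of at least 1 CPM called higher (red) or lower (blue) in wild-type NIPBL, in 4 equal groups by gene span (left) and by GC content of the exons (right). Higher calls increase from 2.23% in the shortest to 8.02% in the longest group, and lower calls from 2.53% to 10.6% with GC content.

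Calls were spread over the genome. Among genes of at least 1 CPM other than TEC models, chromosome medians of the log2 difference ran from -0.036 to 0.0085, and medians over windows of 30 neighbouring genes of at least 1 CPM from -0.103 to 0.097. No window of that size thus had a median beyond 0.103 in size. Runs of 3 or more neighbouring genes called in 1 direction were found 9 times. The longest was the run of 4 protocadherins Pcdhb14, Pcdhb16, Pcdhb17 and Pcdhb22. On chromosome 13 the homeobox genes Irx1 and Irx2 and the noncoding Gm20554 between them fell 1.34-fold, 1.24-fold and 1.25-fold, and on chromosome 8 Irs2, Col4a1 and Col4a2 rose 1.19-fold, 1.09-fold and 1.13-fold.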

How the data were processed

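The 8 libraries are Illumina stranded total RNA libraries after removal of ribosomal RNA, per the labels' protocols. The authors deposited raw counts per gene. The tools named in the submitters' processing notes are bcl2fastq 2.20, cutadapt, STAR 2.7.0f and featureCounts of Subread 2.0.3, with mm10 as the build. The annotation, the strand setting and the treatment of reads with several alignments are not given in the sources used here. All 55341 gene names are in GENCODE vM21, 55298 with the same coordinates, which supplied class, span and GC content.

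Counts were tested with edgeR 4.0.16 in R 4.3.3 (robust quasi-likelihood test, TMM factors, filterByExpr). The model had a mean for each of the 12 groups of 2 over all 24 libraries, with 12 residual degrees of freedom and a median biological coefficient of variation of 6.43%. The pooled contrast is the mean of the WT minus EV difference in ethanol and in dexamethasone. P-values were adjusted by Benjamini and Hochberg over the 16934 tested genes. CPM values use the library totals of the tested genes scaled by the TMM factors, and log2 changes are WT minus EV. The fits were first tested on simulated data. One mutant library has labels that disagree on its treatment and was grouped by its title.

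Genes were named by rule: up to 15 of largest rise and 15 of largest fall among called genes that averaged 1 CPM or more over the 8 libraries and whose groups were separate in both treatments, passing over models without a name. Up to 4 members per list of smallest p, cohesin genes and genes whose effect differed by treatment were added. Further list members and neighbouring genes in the text were named after their values were seen. The members, the lists and the tests were chosen with earlier results of these data known. Alternatives were RLE factors, no filter or a strict filter, a replicate block, the 8 libraries alone, leaving out libraries, the 2 most abundant genes or TEC models, removal of a length and GC trend, and DESeq2 1.42.0. TEC models left out, and the trend removed together with 1 library, were added after seeing the data.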

Additional observations from a re-analysis of the deposited data

Results flagged for a closer look

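The effect of wild-type NIPBL on Nrip1 differed between treatments by 0.47 on the log2 scale (edgeR interaction test, adjusted p = 0.0159). It was -0.033 in ethanol and 0.44 in dexamethasone, where both WT libraries were above both EV libraries. Without IPTG Nrip1 read 45.5 and 46.0 CPM in ethanol and 59.1 and 61.0 CPM in dexamethasone.

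The effect on Adamts1 differed by 0.78 (edgeR interaction test, adjusted p = 0.0159). It was -0.30 in ethanol and 0.48 in dexamethasone, with both WT libraries below both EV libraries in ethanol and above them in dexamethasone. Without IPTG Adamts1 read 88.9 and 94.6 CPM in ethanol and 95.8 and 102 CPM in dexamethasone. Both genes lie on chromosome 16, and treatment and the block of library names cannot be told apart.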

How the results depend on the processing

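The pooled count of 1464 stayed within 1.5 times under RLE factors (1414), no filter (1821), a strict filter (1401), the 8 libraries alone (1293 and 997), removal of the trend (1435), TEC models left out (1303) and DESeq2 (1384). Leaving out 1 library gave 756 to 2119 genes, and removing the trend without replicate 1 of WT in dexamethasone gave 744. In ethanol (196 genes) no filter gave 349 and leave-one-out fits gave 64 to 225. In dexamethasone (712 genes) no filter gave 1211, the 8 libraries alone 392, leave-one-out fits 164 to 1446, and the trend removed without replicate 1 of WT 196. For the difference between treatments (2 genes) no filter gave 13, DESeq2 4, the trend removed 1, leave-one-out fits 0 to 3, and the trend removed without replicate 1 of WT in dexamethasone 4. Depth limits the folds of genes under 1 CPM.

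The replicate numbers are shared by the groups, and no label says that they mark pairs. Deviations of same-numbered EV and WT libraries correlated at 0.279 in ethanol and 0.320 in dexamethasone. Other pairs of groups ran from -0.318 to 0.548. The highest was between groups of different treatment, EV without IPTG in ethanol and WT in dexamethasone. With a replicate block 2250 genes passed pooled, 392 in ethanol, 1395 in dexamethasone and 5 for the difference. With the replicate block within treatment the numbers were 2218, 375, 1377 and 5.

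Signs of the log2 difference turned for 17 named genes, of which only Esco2 had passed. With the trend removed Esco2 gave -0.028, Cd14 gave 0.0031, Nipbl gave -0.0033, Rad21 gave -0.00067 and Wapl gave -0.027. With the trend removed and no replicate 1 of WT in dexamethasone Impact gave -0.035 and Nipbl gave -0.044. With a strict filter Mylk gave 0.0025. With TEC models left out Mylk gave 0.0068 and Pds5a gave 0.0033. With an additive fit on the 8 libraries Lyz2 gave -0.0041. Over the leave-one-out fits Cd14 ran from -0.086 to 0.048, Cdca5 ran from -0.012 to 0.082, Elavl3 ran from -0.35 to 0.88, Esco1 ran from -0.039 to 0.0069, Fabp4 ran from -0.35 to 0.028, Hdac8 ran from -0.076 to 0.018, Lyz2 ran from -0.077 to 0.10, Mau2 ran from -0.0041 to 0.092, Mylk ran from -0.029 to 0.019, Pds5a ran from -0.027 to 0.013, Rad21 ran from -0.015 to 0.053, Smc1a ran from -0.017 to 0.087 and Stag2 ran from -0.072 to 0.029.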
